A study of Saccharomyces cerevisiae with 8 samples.

Results

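The genes described here mostly encode yeast proteins that dissolve, hold and sort aggregated proteins. They are the disaggregases HSP104 and HSP78, the small heat shock proteins HSP42, HSP26 and HSP12, the aggregate sorting factors BTN2 and CUR1, and the Hsp40 cochaperones SIS1 and YDJ1. These 9 genes were chosen by name, out of 5449 Saccharomyces cerevisiae genes named on the array. Each had 1 probe set, and each of those probe sets lay above background on all 8 arrays. The 4 CDC34tm cultures came from the CDC34tm strain (RRC85, MATα), in which the CDC34tm allele is marked by a nourseothricin resistance gene, and the 4 wild type (WT) cultures came from the isogenic DBY2059 (MATα), beside which the series' design text lists leu2-3, 112. CDC34 encodes the ubiquitin-conjugating enzyme of the SCF ubiquitin ligases. The sample labels also name disruption of part of the PST1 3' end and the leu2 allele as variables for every sample, so which strains carry the allele is not settled by the labels. All cultures grew at 30 °C for 3 to 4 doublings out of stationary phase, in a synthetic medium that held 2% dextrose, 0.25% glutamine and 25.2 mg/L leucine. Values are MAS5 signals, linear intensities that share a common level on all arrays as deposited, which hides any shift of all mRNAs together. In such bulk RNA, fewer cells making an mRNA and less of it per cell cannot be told apart.

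Proteins that misfold in the yeast cytosol are bound by small heat shock proteins, handed by Hsp40s to Hsp70, and pulled out of aggregates by the ring-shaped ATPase Hsp104. Sorting factors decide where in the cell the remaining aggregates gather. The transcription factor Hsf1 drives most of these genes when unfolded proteins accumulate. Msn2 and Msn4 drive a broader stress response that includes HSP12 and HSP26, among other genes.

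S. cerevisiae probe sets had a median signal of 1162 to 1244 per array, and background ranged from 12.3 to 14.6. CDC34 itself read 1398 ± 57.4 in CDC34tm against 1387 ± 128 in WT (SD, n = 4 each, limma adjusted p = 0.899), so its probe set does not mark the allele. PST1 was 2.14-fold and LEU2 2.26-fold lower in CDC34tm. The MATα genes STE3, MFALPHA1, MFALPHA2 and SAG1 read from 5566 to 13540 on all arrays, and the MATa genes STE2, MFA1, MFA2, BAR1 and AGA2 from 32.3 to 302, above background on all 8 arrays. WT replicates 1 and 4 stood apart from WT replicates 2 and 3 in most of the 9 genes. Each of the 9 genes is therefore also given without WT replicates 1 and 4. Their median signals (1223 and 1222) and backgrounds (both 13.3) lay inside the range of the other arrays. All arrays share a common level as deposited, so these values cannot show whether the arrays differ in other ways.

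Messenger RNAs of the aggregate-handling machinery were mostly lower in CDC34tm, with the small heat shock genes split. Of the 9 genes, 7 fell, 1 rose (HSP26) and 1 was not past the threshold (HSP12). The number lower was 3 (HSP42, CUR1 and SIS1) when any single CDC34tm array, or WT replicate 1 or 4, was left out, and 7 without WT replicate 2 or 3. The number higher was 0 without CDC34tm replicate 1 or 4, and 2 without WT replicate 2. The median log2 fold change of the 9 was -1.46, against 0.00 over all 5437 tested probe sets. Among those probe sets, 19.7% were lower and 18.9% higher at a limma adjusted p under 0.05. These are 1072 lower and 1028 higher probe sets, and centring each array on its median gave 899 lower and 1295 higher. For the 7 genes that fell with all arrays, every CDC34tm array lay below every WT array, which held for 20.5% of all tested probe sets, while 39.5% had strains that did not overlap in either direction. Of the 9 genes, 6 were both called and at least 2-fold lower, against 2.24% of all tested probe sets. Without WT replicates 1 and 4, HSP42 (4.41-fold) and CUR1 (2.14-fold) stayed at least 2-fold lower. HSP104, HSP78, BTN2 and SIS1 were then 1.32-fold, 1.57-fold, 1.51-fold and 1.80-fold lower. The genes were chosen with earlier results of these arrays known, so these counts describe the group and do not test it.

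HSP104 encodes the cytosolic and nuclear disaggregase, which is also needed for the inheritance of yeast prions. Its signal on CDC34tm replicates 1 to 4 was 1598, 1653, 1291 and 1442, against 7999, 2090.03, 1871 and 9173 on WT replicates 1 to 4. The CDC34tm arrays were close together and all below WT, while WT replicates 1 and 4 were far above the other arrays. The mean was 1496 ± 163 in CDC34tm against 5283 ± 3845 in WT (SD, n = 4 each), a 2.75-fold fall (log2 fold change -1.46, SE 0.48, limma adjusted p = 0.0373). Leaving out WT replicates 1 and 4 gave a fall of 1.32-fold (adjusted p = 0.0126).

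HSP78 encodes the mitochondrial counterpart of Hsp104, which works with the mitochondrial Hsp70. It read 248, 208, 278 and 263 on the CDC34tm arrays, against 2573, 371, 431 and 2886 on the WT arrays. The split among the WT cultures was the same as for HSP104 but wider. HSP78 fell 4.04-fold, with 249 ± 30.0 in CDC34tm against 1565 ± 1351 in WT (mean ± SD, n = 4 each; log2 fold change -2.01, SE 0.62, limma adjusted p = 0.0280). With WT replicates 2 and 3 as the only WT arrays it fell 1.57-fold (adjusted p = 0.00343). The calls of HSP104 and HSP78 were lost when any single CDC34tm array, or WT replicate 1 or 4, was left out, with adjusted p up to 0.0877 and 0.0736.

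**Figure D1:**
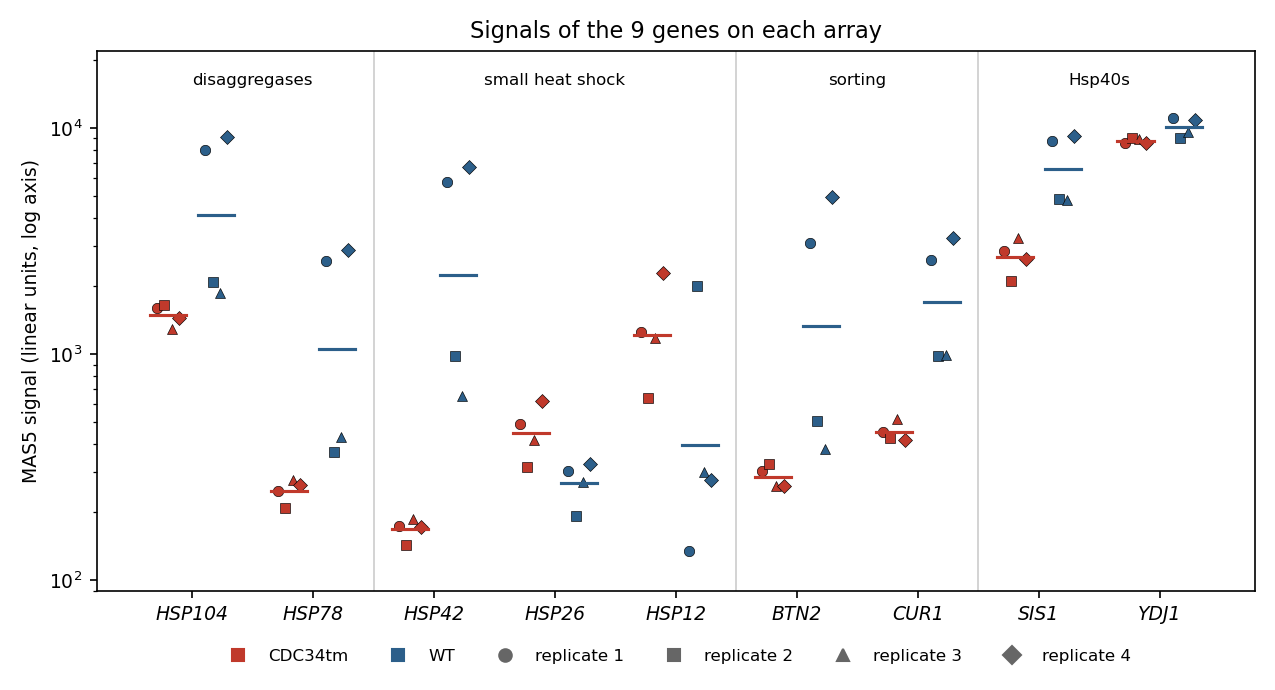
MAS5 signals (linear units on a log axis) of the 9 genes on each of the 4 CDC34tm and 4 WT arrays, where marker shapes give the replicate number and bars the mean on the log2(signal + 16) scale. For HSP42 the CDC34tm arrays lie between 144 and 188 and the WT arrays between 652 and 6744, while for HSP26 and HSP12 the strains overlap.

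HSP42, a small heat shock protein that acts in growing cells and gathers misfolded proteins into aggregates, showed the largest difference of the 9. It read 174, 144, 188 and 173 on the CDC34tm arrays, and 5769.75, 978, 652 and 6744 on the WT arrays. Every WT array was at least 3.48 times the highest CDC34tm array, the widest gap between the strains among the 9 genes. HSP42 fell 12.2-fold, with 169.6 ± 18.4 in CDC34tm against 3536 ± 3169.6 in WT (mean ± SD, n = 4 each; log2 fold change -3.61, SE 0.67, limma adjusted p = 0.00281). This was the third largest fall among the 5437 tested probe sets. Without WT replicates 1 and 4 the fall was 4.41-fold (adjusted p = 1.91e-05), against 33.8-fold when WT replicates 2 and 3 were the ones left out.

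HSP26 encodes the other classical small heat shock chaperone, which is activated by warming and then holds unfolded proteins. It went the other way, at 494, 317, 417 and 619 on the CDC34tm arrays against 304, 192, 272 and 327 on the WT arrays. In CDC34tm 3 of 4 arrays were above every WT array, and replicate 2 was just below WT replicate 4. HSP26 rose 1.63-fold, with 462 ± 127 in CDC34tm against 274 ± 58.9 in WT (mean ± SD, n = 4 each; log2 fold change 0.71, SE 0.21, limma adjusted p = 0.0231). The call was lost without CDC34tm replicate 1 (adjusted p = 0.0632) or 4 (0.0626), and without WT replicates 2 and 3 together (0.0733). The exact two-sided permutation test of 4 against 4 arrays, not adjusted, gave p = 0.0571, where the smallest possible p is 0.0286. HSP26 was 1.90-fold higher with WT replicates 1 and 4 left out (limma adjusted p = 0.0112).

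HSP12, a small membrane-associated stress protein, was the most variable of the 9 within CDC34tm. It read 1259, 639, 1181 and 2277 on the CDC34tm arrays, and 135, 2012, 302 and 277 on the WT arrays. WT replicate 2 lay inside the CDC34tm range and the other WT arrays lay below it. The mean was 1339 ± 683 in CDC34tm against 681 ± 890.1 in WT (SD, n = 4 each), with a log2 fold change of 1.58, a 95% interval from 0.03 to 3.13 and a limma adjusted p of 0.0963. WT replicate 2 decided the call. Without it the log2 fold change was 2.35 (adjusted p = 0.00232). Against WT replicates 2 and 3 alone it was 0.62 (adjusted p = 0.482).

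BTN2 and CUR1 encode related sorting factors. Btn2 gathers misfolded proteins into cytosolic deposits, and Cur1 directs them, with Sis1, towards the nucleus. BTN2 read 303, 325, 260.4 and 259.9 on the CDC34tm arrays, against 3107, 507, 381 and 4979 on the WT arrays. The highest WT array was 13.1 times the lowest, while the CDC34tm arrays lay close together. BTN2 fell 4.45-fold, with 287 ± 32.6 in CDC34tm against 2244 ± 2214 in WT (mean ± SD, n = 4 each; log2 fold change -2.15, SE 0.72, limma adjusted p = 0.0384). Against WT replicates 2 and 3 alone the fall was 1.51-fold (adjusted p = 0.00837). Its call, too, was lost when any single CDC34tm array, or WT replicate 1 or 4, was left out (adjusted p up to 0.0924).

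CUR1 read 451, 428, 519 and 416 on the CDC34tm arrays, against 2618, 979.6, 995 and 3263 on the WT arrays. Its WT replicates 2 and 3 were well clear of CDC34tm, with a lowest WT array 1.89 times the highest CDC34tm array. CUR1 fell 3.67-fold, with 453 ± 46.0 in CDC34tm against 1964 ± 1158 in WT (mean ± SD, n = 4 each; log2 fold change -1.88, SE 0.36, limma adjusted p = 0.00326). Leaving out WT replicates 1 and 4 left a 2.14-fold fall (adjusted p = 5.72e-05). CUR1, HSP42 and SIS1 passed the threshold under all 19 alternatives of the limma fit.

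SIS1 encodes an essential Hsp40 that guides Hsp70 to aggregates and prions. It read 2875, 2108, 3253 and 2629 on the CDC34tm arrays, against 8786, 4849, 4831 and 9245 on the WT arrays. SIS1 fell 2.45-fold, with 2716 ± 480.0 in CDC34tm against 6928 ± 2418 in WT (mean ± SD, n = 4 each; log2 fold change -1.29, SE 0.23, limma adjusted p = 0.00221). The strains were well apart, and the fall was 1.80-fold against WT replicates 2 and 3 alone (adjusted p = 0.00142).

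YDJ1 encodes the abundant farnesylated Hsp40 of the cytosol, which assists Hsp70 in general folding. It read 8594, 9024, 8943 and 8638 on the CDC34tm arrays, against 11126, 9032, 9613 and 10877 on the WT arrays. The strains were separated by a margin of 1.00 times between WT replicate 2 and CDC34tm replicate 2. YDJ1 was 1.15-fold lower, with 8799.6 ± 216 in CDC34tm against 10162 ± 1003 in WT (mean ± SD, n = 4 each; log2 fold change -0.20, SE 0.07, limma adjusted p = 0.0341). The call held in 9 of 19 alternatives. It was lost, among others, without any single CDC34tm array (adjusted p from 0.0546 to 0.0831), without WT replicate 1 (0.0788) or 4 (0.0860), and without both of these (log2 fold change -0.08, adjusted p = 0.211).

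The WT cultures differed among themselves in these genes far more than in most others. The median SD of log2 signals over the 9 genes was 0.159 in CDC34tm and 1.22 in WT, against 0.0885 in CDC34tm and 0.131 in WT over all tested probe sets. BTN2, HSP42, HSP12, HSP78, HSP104 and CUR1 had a larger WT SD than more than 99% of tested probe sets, from 99.2% for CUR1 to 99.98% for BTN2. In CDC34tm the same genes were less extreme, apart from HSP12, whose SD exceeded that of 99.96% of probe sets. The SD of HSP26 exceeded that of 99.3% of probe sets in CDC34tm and 89.9% in WT. SIS1 exceeded 95.8% in CDC34tm and 97.3% in WT. YDJ1 varied less than most probe sets in CDC34tm, with an SD above only 8.30% of them, and was near the middle in WT at 55.1%. The SD was larger in WT than in CDC34tm for 8 of the 9 genes, HSP26 being the exception, and for 68.8% of all tested probe sets.

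**Figure D2:**
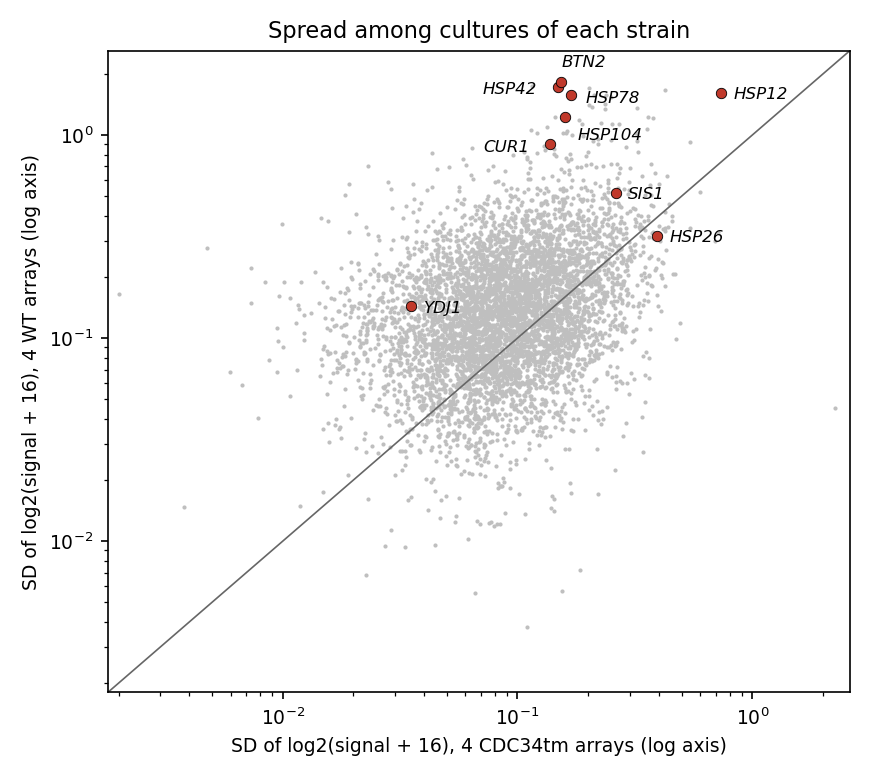
SD of log2(signal + 16) over the 4 CDC34tm arrays (horizontal, log axis) and the 4 WT arrays (vertical, log axis) for each tested probe set (grey) and for the 9 genes (red), with a line of equal spread. BTN2, HSP42, HSP78, HSP104, CUR1 and HSP12 lie at the top, with a WT SD between 0.904 and 1.83.

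The order of the WT cultures was shared. WT replicates 1 and 4 were the highest WT arrays for 8 of the 9 genes, HSP26 included, and for 25.4% of all tested probe sets. HSP12 ran against this, with WT replicate 2 highest and WT replicate 1 lowest. WT replicates 2 and 3 were the highest WT arrays for 35.1% of all tested probe sets, so the split was not confined to these genes. Relative to the CDC34tm mean, WT replicate 4 was 36.6-fold higher for HSP42, 16.5-fold for BTN2, 11.0-fold for HSP78, 7.01-fold for CUR1, 6.10-fold for HSP104, 3.43-fold for SIS1 and 1.24-fold for YDJ1. WT replicate 3 was 3.61-fold higher for HSP42, 2.16-fold for CUR1, 1.80-fold for SIS1, 1.69-fold for HSP78, 1.32-fold for BTN2 and 1.09-fold for YDJ1, with HSP104 between BTN2 and YDJ1. The ranking thus changed with the culture, since CUR1 and SIS1 came before BTN2 in WT replicate 3 and after it in WT replicate 4. In CDC34tm, HSP26 and HSP12 shared the order of replicates 4, 1, 3 and 2 from high to low, HSP42 and SIS1 shared the order 3, 1, 4 and 2, and the other 5 genes each had an order of their own.

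With WT replicates 1 and 4 left out, 6 of the 9 genes were still lower and 1 higher, and the median log2 fold change of the 9 went to -0.59, against -0.02 over all tested probe sets. In that fit 20.9% of probe sets were lower and 17.9% higher. With WT replicates 2 and 3 left out, 7 were lower and 1, HSP12, was higher (5.85-fold, adjusted p = 6.76e-04), with a median of -2.51, and 22.5% of all probe sets were lower and 25.5% higher. The sign was the same for each of the 9 genes in all 3 fits. The arrays left out were known from earlier results to stand apart in heat shock genes, which narrows the spread of those genes, so the smaller p-values are no firmer evidence than those with all arrays.

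**Figure D3:**
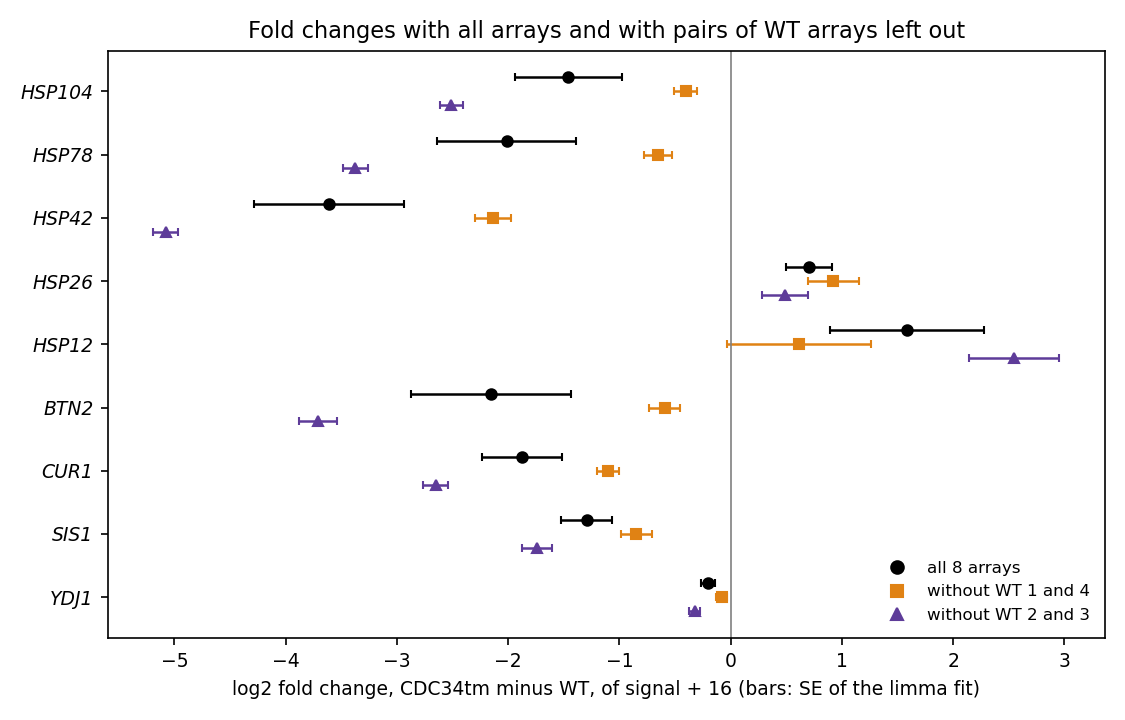
Log2 fold change of signal + 16, CDC34tm minus WT, for each gene with all 8 arrays (circles), without WT replicates 1 and 4 (squares) and without WT replicates 2 and 3 (triangles), with bars for the SE of the limma fit. HSP42 is at -3.61, -2.14 and -5.08, while HSP26 and HSP12 stay above 0 in each fit.

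Related genes were compared within each array, as the difference of their log2(signal + 16) values, over 4 pairs with the exact two-sided permutation test of 4 against 4 arrays, whose smallest p is 0.0286. A level of one probe set cannot be set against that of another, so only the change of this difference between the strains is read. For HSP42 minus HSP26 it ran from -1.75 to -1.06 in CDC34tm and from 1.21 to 4.30 in WT, a difference of -4.32 between the strain means (exact p = 0.0286, adjusted over the 4 pairs 0.0571). For SIS1 minus YDJ1 it ran from -2.09 to -1.45 in CDC34tm and from -0.99 to -0.23 in WT, a difference of -1.09 (exact p = 0.0286, adjusted 0.0571). The strains did not overlap in either pair, and neither passed the threshold once adjusted. For HSP104 minus HSP78 it ran from 2.15 to 2.90 in CDC34tm and from 1.63 to 2.45 in WT, which overlap, and the difference was 0.56 (exact p = 0.0857, adjusted 0.114). For BTN2 minus CUR1 it was -0.28 (exact p = 0.571, adjusted 0.571), and without WT replicates 1 and 4 it became 0.51. In WT replicates 1 and 4, BTN2 minus CUR1 was 0.25 and 0.61, and in WT replicates 2 and 3 it was -0.93 and -1.35, beyond the spread of -0.95 to -0.38 in CDC34tm on either side except for replicate 2.

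**Figure D4:**
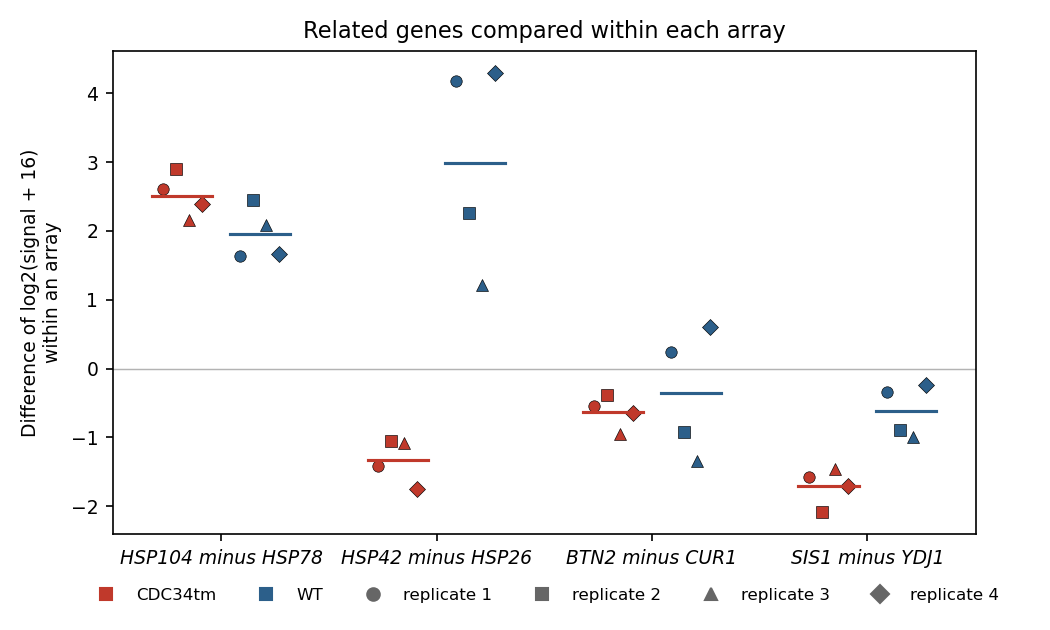
Difference of log2(signal + 16) between related genes within each array, for the 4 CDC34tm and 4 WT arrays, with bars for the strain means and marker shapes for the replicate number. The strains are apart for HSP42 minus HSP26 (means -1.33 in CDC34tm and 2.99 in WT) and SIS1 minus YDJ1 (-1.71 and -0.61), and overlap for the other pairs.

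Likeness to other genes was measured as the root mean square difference between log2 profiles over the 8 arrays, each centred on its own mean, among 5392 tested genes. It describes these arrays, which share the difference between the strains and the split among the WT cultures. Closest to HSP42 were YRO2 (0.417) and HSP30 (0.551), both of the Hsp30 membrane protein family, and RTC3 (0.536). HSP30 fell 23.8-fold and YRO2 12.6-fold, the only falls larger than that of HSP42 among tested probe sets. Closest to HSP78 were SOL4 (0.145), HSP82 (0.189), the stress-induced Hsp90, and MGA1 (0.293). BTN2 had HSP82 (0.267), RTC3 (0.361) and SOL4 (0.367). HSP82 read 522, 447, 538 and 488 on the CDC34tm arrays, against 6919.65, 815, 943 and 7528 on the WT arrays, and its call was lost without WT replicate 1 or 4 or CDC34tm replicate 1, 2 or 4 (adjusted p up to 0.0625).

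CUR1 was closest to PNC1 (0.185), the nicotinamidase, GPD1 (0.209), a glycerol synthesis enzyme, and APJ1 (0.223), another Hsp40. SIS1 was closest to EDC2 (0.0660), an activator of mRNA decapping, FRT2 (0.0908) and YPL247C (0.0934). HSP104 was closest to PIC2 (0.173), a mitochondrial carrier, SPI1 (0.254) and YER053C-A (0.266). YDJ1 was closest to RPN1 (0.0268) and RPT4 (0.0328), subunits of the proteasome's regulatory particle, and VPS35 (0.0337), although flat profiles lie close to each other by this measure. HSP26 was closest to OYE3 (0.151), MNN4 (0.196) and FUN14 (0.198). HSP12 had no close companion: its nearest were PHO84 (0.797), the phosphate transporter, HPF1 (0.813) and CLD1 (0.934). Among the 9 genes the closest were HSP78 and BTN2 (0.318), HSP104 and CUR1 (0.336) and CUR1 and SIS1 (0.393), and the farthest apart were HSP42 and HSP12 (3.19).

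The wider Hsf1 chaperone network, without the 9 genes, moved the same way in part. Of its 25 genes, 12 were lower, 1 higher and 12 not past the threshold, with a median log2 fold change of -0.34. Over all tested probe sets 38.6% were called in either direction. The cytosolic Hsp70 gene SSA1 read 4416 ± 377 in CDC34tm against 6971 ± 1138 in WT (SD, n = 4 each, 1.57-fold lower, limma adjusted p = 0.00170). The mitochondrial Hsp70 gene SSC1 was 1.33-fold lower, the chaperonin gene HSP60 1.26-fold and the mitochondrial Hsp40 gene MDJ1 2.57-fold. CPR7, a cyclophilin that works with Hsp90, was the gene that rose (1.24-fold). Leaving out WT replicates 1 and 4 again gave 12 lower and 1 higher (median -0.15), and leaving out WT replicates 2 and 3 gave 20 lower and 1 higher (median -0.53).

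Of 20 other J-domain proteins, the family to which Sis1 and Ydj1 belong, 5 were lower and 3 higher, with a median of 0.03, so the count of calls was near that over all probe sets. APJ1 was 2.94-fold lower, at 254 ± 8.03 in CDC34tm against 878 ± 500.0 in WT (SD, n = 4 each, limma adjusted p = 0.00490). MDJ1, named above, is also in this list, and both APJ1 and MDJ1 are counted in the Hsf1 list as well. XDJ1 was 1.51-fold and JID1 1.27-fold lower. The higher genes were CAJ1, JJJ3 and JEM1, and each of these calls was lost without CDC34tm replicate 1, among other arrays. Leaving out WT replicates 1 and 4 gave 5 lower and 2 higher, and leaving out WT replicates 2 and 3 gave 4 lower and 4 higher.

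Among 16 genes for protein folding and turnover in mitochondria, where Hsp78 acts, 15 were tested (all but YTA10), 7 were lower and 0 higher, with a median of -0.25, where 19.7% of all probe sets were lower and 18.9% higher. With WT replicates 1 and 4 left out, 7 were lower and 1 higher (median -0.10). With WT replicates 2 and 3 left out, 9 were lower and 1 higher (median -0.32). The lower genes include SSC1, HSP60 and MDJ1, which are also counted in the Hsf1 list. TIM44, which tethers the mitochondrial Hsp70 to the import channel, was 1.66-fold lower, and PIM1, the mitochondrial Lon protease, was 1.59-fold lower. For TIM44 the values were 1855 ± 246 in CDC34tm against 3070 ± 222 in WT (SD, n = 4 each), and WT replicates 1 and 4 (2889 and 3391) did not stand apart from WT replicates 2 and 3 (3035 and 2966).

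General stress genes under Msn2 and Msn4, the activators of HSP12 and HSP26, had 12 of 30 lower and 1 higher, with a median of -0.34. That number of calls is close to the 38.6% called over all probe sets in either direction. By direction, 19.7% of all probe sets were lower and 18.9% higher, so the calls in this list leaned to the lower side. The higher one was GRE1, whose call was also lost without CDC34tm replicate 1, among other arrays. PNC1 was 3.29-fold, YGP1, a secreted glycoprotein, 3.11-fold, TFS1 1.86-fold and the trehalase gene NTH1 1.67-fold lower. With WT replicates 1 and 4 left out, 11 were lower and 7 higher with a median of 0.01, and with WT replicates 2 and 3 left out, 20 were lower and 1 higher with a median of -0.80.

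Of 10 genes for regulators of these responses, 5 were lower and 1 higher, with a median of -0.26, beside 38.6% of all probe sets called in either direction. HSF1, the activator of most of the 9 genes, read 623, 528, 661 and 552 on the CDC34tm arrays, against 1093, 1011, 888 and 993 on the WT arrays. Its mean was 591 ± 61.8 in CDC34tm against 996 ± 84.7 in WT (SD, n = 4 each), a 1.67-fold fall (log2 fold change -0.74, SE 0.09, limma adjusted p = 3.68e-04), or 1.59-fold against WT replicates 2 and 3 alone. The WT cultures that differed so widely in HSP42 or BTN2 lay close together in HSF1 mRNA. The activity of the Hsf1 protein was not measured. RPN4, the activator of proteasome genes, was 1.54-fold and YAP1, an oxidative stress factor, 1.35-fold lower. MSN4 rose 1.70-fold, with 788 ± 43.6 in CDC34tm against 466 ± 103 in WT (SD, n = 4 each, limma adjusted p = 0.00373), while MSN2 was not past the threshold (log2 fold change -0.17, adjusted p = 0.0820).

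**Figure D5:**
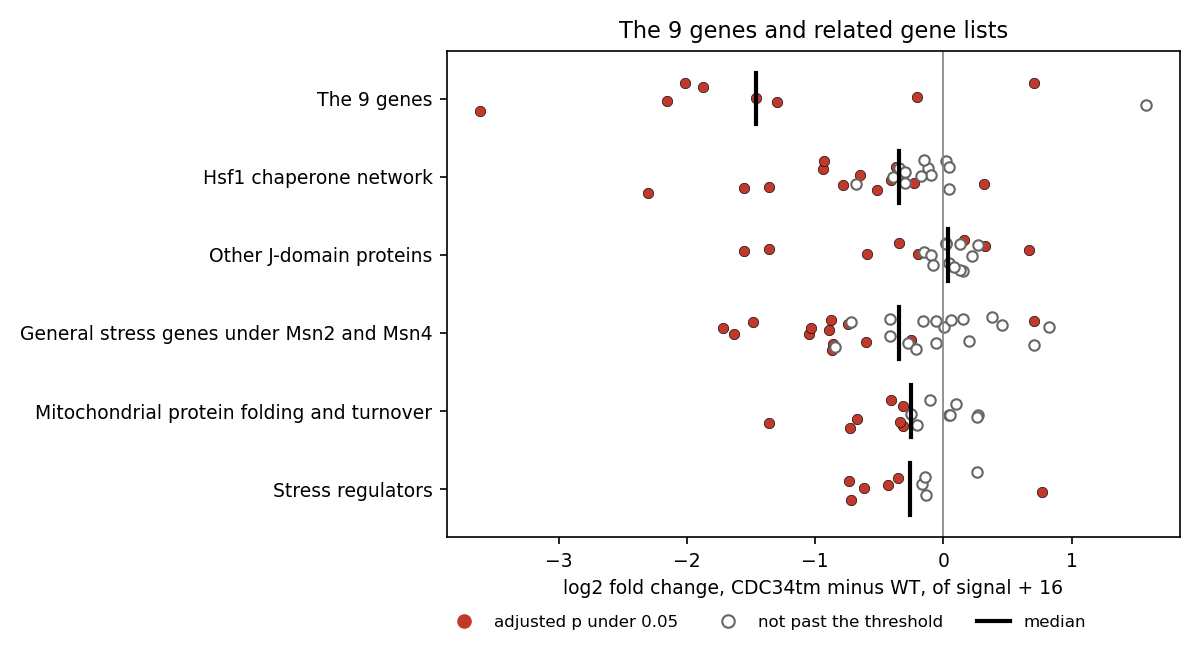
Log2 fold change of signal + 16, CDC34tm minus WT, of the 9 genes and of each tested gene in the 5 related lists, filled where the limma adjusted p was under 0.05, with a bar at the median of each list. The medians are -1.46 for the 9 genes, -0.34 for the Hsf1 chaperone network and 0.03 for the other J-domain proteins.

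The genes next to the 9 on their chromosomes, by the RefSeq gene order of the R64 assembly, were examined as well. Of 18 neighbours, 15 were tested, and 6 were lower and 3 higher, beside 38.6% of all probe sets called in either direction. The largest change was that of TDA6, next to CUR1, singled out after its values were seen. It read 175, 165, 230.3 and 213 on the CDC34tm arrays, against 1613, 1412, 1220.07 and 2645 on the WT arrays, a 7.91-fold fall (limma adjusted p = 1.33e-05) that was larger than that of CUR1. SUP35, the prion-forming translation termination factor gene beside HSP42, was not past the threshold (log2 fold change 0.04, adjusted p = 0.670).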

How the data were processed

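Total RNA from 8 cultures was measured on Affymetrix Yeast 2.0 arrays, 1 per culture. The deposited values are intensities on a linear scale, made with MAS5 per the submitters' processing notes. Neither its version nor its scaling target is known here, but a mean trimmed by 2% at each end came to about the same value on all arrays.

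Gene names came from the platform table (5498 S. cerevisiae probe sets), with 12 symbols updated through the RefSeq gene table. The 95th percentile of 1746 Schizosaccharomyces pombe probe sets gave the background, and 5437 probe sets above it on at least 4 of 8 arrays were tested. The test used lmFit and eBayes with a trend from limma 3.58.1 (R 4.3.3) on log2(signal + 16), CDC34tm against WT, two-sided, Benjamini-Hochberg adjusted over all tested probe sets, threshold 0.05. Fold changes on this scale understate those of dim genes. Both strains share 1 estimate of spread, although WT varied more. The number of arrays limits the precision. The steps were tested on simulated data. That simulation gave both strains the same spread and held no split among the WT arrays, so it does not cover the WT spread seen here. Gene lists came from general knowledge. From each, up to 4 called genes with the smallest adjusted p are named, as are all 9 genes and the 3 genes most like each, and others are named as examples chosen after their values were seen. The 9 genes, lists and tests were chosen with earlier results of these data known. Cultures of a strain were separate, per the labels. Alternatives were other pseudocounts, quantile normalization, median centring, other filters, eBayes without the trend or robust, a replicate block, and arrays left out.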

Additional observations from a re-analysis of the deposited data

How the results depend on the processing

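Of the 9 genes, 7 were lower with all arrays, and between 3 and 7 when single arrays were left out, HSP104, HSP78, BTN2 and YDJ1 being those lost; with robust eBayes 4 were lower, HSP104, HSP78 and BTN2 being lost (adjusted p = 0.0680, 0.0544 and 0.0699). The number higher was 1, and between 0 and 2 when single arrays were left out. YDJ1 also lost its call after centring on the median (log2 fold change -0.16, adjusted p = 0.126) and without the trend (adjusted p = 0.0630). No gene changed sign under the alternatives of the limma fit, and the cause of the lost calls was not tested. Leaving out WT replicates 2 and 3 gave 21 called in the Hsf1 list in place of 13, and 21 in the general stress list in place of 13. When single arrays were left out, calls numbered 5 to 9 among other J-domain proteins, 8 to 14 in the general stress list and 12 to 16 in the Hsf1 list. The difference HSP42 minus HSP26 was -3.06 with WT replicates 1 and 4 left out and -5.57 with replicates 2 and 3 left out. BTN2 minus CUR1 was 0.51 and -1.06 in those settings, and -0.61 to 0.045 when single arrays were left out, positive without WT replicate 4. With single arrays left out, HSP104 minus HSP78 ranged from 0.43 to 0.72 and SIS1 minus YDJ1 from -1.22 to -0.96. These 2 differences moved further, to 0.25 and -0.76, with WT replicates 1 and 4 left out. They were 0.86 and -1.42 with WT replicates 2 and 3 left out. Over all probe sets 1028 were higher and 1072 lower, and after centring 1295 and 899.

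Replicate numbers did not pair the samples consistently: deviations of same-numbered arrays correlated at 0.04, 0.23, -0.08 and 0.06. The best-correlated WT array had the same number for CDC34tm replicates 1 and 2, but not for 3 and 4. With the replicate block 6 of the 9 genes were lower and 1 higher, YDJ1 losing its call (adjusted p = 0.0585), and 975 probe sets were higher and 1018 lower. No further probe set of the 9 genes was named, so that alternative gave no value. The 4 arrays per strain and the wide WT spread of most of the 9 genes limit the precision, and all 9 were above background on every array.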
